A study of Rattus norvegicus with 24 samples.

Results

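Of 24 rat hippocampal RNA-seq libraries, 7 held a normalised count of at least 100 for Shox2, a homeobox gene of thalamic relay neurons, and they are described here beside the other 17. The 7, called Shox2-high, were chosen by that count alone, and the 17 are called Shox2-low. Shox2 was read only to divide the libraries and is left out of every result. Its count in the Shox2-high libraries was 771 and 733 in Prevention replicates 1 and 4, 444 in Treatment replicate 6, 446, 134 and 160 in OVX replicates 2, 4 and 6, and 695 in SHAM replicate 5. Just inside the threshold of 100 stood OVX replicate 4, and just outside it SHAM replicate 7 with 40.0. The other 16 Shox2-low libraries held 0 to 8.86.

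All animals were female rats, 6 months old when the schedule began, and all libraries were labelled hippocampus. Prevention (labelled OVX_E2_Prevention, n = 5) had the ovaries removed and then 5 weeks of estradiol (E2). Treatment (OVX_E2_Treatment, n = 5) had the ovaries removed, then 3 weeks of vehicle and 2 weeks of E2. OVX (n = 7) had the ovaries removed and 7 weeks of vehicle, and SHAM (n = 7) kept the ovaries and had 7 weeks of vehicle. Dose, strain and whether each library came from a separate animal are not in the labels, so spreads and p-values measure the variation between these libraries. Shox2-high libraries made up 2 of 5 in Prevention, 1 of 5 in Treatment, 3 of 7 in OVX and 1 of 7 in SHAM.

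The values were the authors' normalised counts, whose columns summed to between 35.4 M and 38.8 M. Read depth per library is not given in the sources used here. Features above 0 numbered 18333 to 18747 in the Shox2-high libraries and 18094 to 18675 in the Shox2-low libraries. In 7 libraries, all 5 of Prevention and Treatment replicates 1 and 2, the feature LOC257642 exceeded 16 on the log2 scale, and this library set held 2 Shox2-high and 5 Shox2-low libraries. Both Shox2-high libraries of this set were in Prevention. With treatment group as a covariate, a change within the set therefore compares Prevention libraries only. Hippocampal neurons were represented in every library. Slc17a7, the vesicular glutamate transporter of hippocampal principal neurons, was at 47185 to 61782 in Shox2-high and 52736 to 76330 in Shox2-low libraries. Prox1, which marks dentate granule cells, was at 2035 to 3300 in Shox2-high and 2075 to 4180 in Shox2-low libraries.

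The thalamus lies beneath the hippocampus, separated from it by the ventricle and its choroid plexus, and the hippocampus is lifted off it when a rat brain is dissected. Thalamic relay neurons arise from the diencephalon and keep transcription factors such as Tcf7l2, Lef1 and Gbx2, and they load glutamate with the transporter Slc17a6, whereas most hippocampal principal neurons use Slc17a7. Further ventral lies the hypothalamus, whose neurosecretory cells make oxytocin and vasopressin, and further caudal lie the habenula, pretectum and midbrain.

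The other member of the marker pair, Tcf7l2, a transcription factor of Wnt signalling that adult thalamic and habenular neurons retain, was higher in all 7 Shox2-high libraries than in any Shox2-low library. Its normalised count was 1867 and 2043 in Prevention replicates 1 and 4, 1573 in Treatment replicate 6, 1579, 481 and 773 in OVX replicates 2, 4 and 6, and 3357 in SHAM replicate 5. In the Shox2-low libraries it ran from 278 to 392, with a median of 324. The 2 lowest Shox2-high values belonged to OVX replicates 4 and 6, which also had the lowest Shox2 counts, and the groups did not overlap. With treatment group as a covariate, the change was 2.19 ± 0.20 (log2 of the normalised count + 1, Shox2-high minus Shox2-low, ± SE), a 4.56-fold difference. Because the libraries were divided by a gene measured in those same libraries, this change and the others across the division describe which genes went with Shox2. No p-value of such a change is given. Those printed further below for the division belong to the difference of a change between Prevention and OVX.

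Across 16118 features with a mean of at least 10, 830 (5.15%) were called higher and 936 (5.81%) lower in the Shox2-high libraries at a limma adjusted p under 0.05, and these shares are read only as the background for the lists. The median change of all tested features was 9.2e-05. Every Shox2-high library exceeded every Shox2-low library for 26 features (0.161%), and every Shox2-high library lay below every Shox2-low library for 4 (0.0248%). The 26 included Tcf7l2, Lef1, Slc17a6, Prkcd, Rgs16 and Chrna4 of the lists described below, and also Mybpc1, Wnt9b, Plcb4, Vipr2 and Opn3. The 4 included Lgi1, Rimbp2 and Tmem175, named after their values were seen. In bulk tissue, fewer cells of a type and less RNA per cell cannot be told apart, so every difference below is one of RNA level per library.

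**Figure D1:**
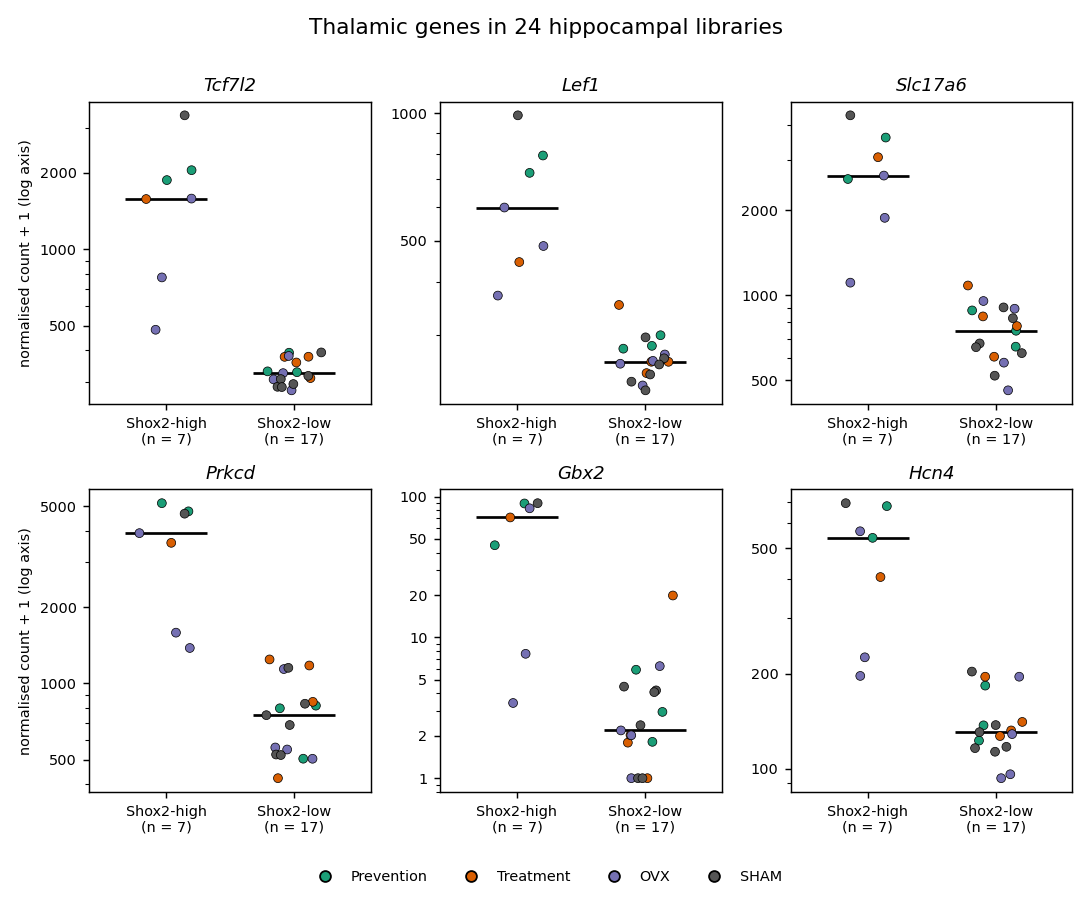
Normalised count + 1 (log axis) of 6 thalamic genes in 7 Shox2-high and 17 Shox2-low libraries. Points are libraries coloured by treatment group and horizontal lines are medians. Tcf7l2, Lef1, Slc17a6 and Prkcd do not overlap between the groups, while Gbx2 and Hcn4 do.

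All 26 genes of the thalamus list were measured and passed the filter. Of these, 23 were called higher, 0 were called lower, and the median change was 1.19. Gbx2 averaged under 10 in the Shox2-low libraries, so it passed the filter only through the Shox2-high libraries and had to differ, and without it 22 of 25 were called with a median of 1.17. The summed count of the list had a lowest, median and highest value of 27950, 44408 and 53631 in the Shox2-high libraries, against 20740, 23711 and 27460 in the Shox2-low libraries, and the groups did not overlap.

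Among the transcription factors, Gbx2, which specifies thalamic neurons in mouse development, had a change of 3.86 ± 0.62. It was at 44.2 and 88.4 in Prevention replicates 1 and 4, 70.1 in Treatment replicate 6, 81.6, 6.65 and 2.42 in OVX replicates 2, 4 and 6, and 88.8 in SHAM replicate 5. The Shox2-low libraries ran from 0 to 18.8 with a median of 1.18. OVX replicates 4 and 6 lay inside the Shox2-low range, whose highest value was that of Treatment replicate 5, and the other 5 Shox2-high libraries stood above it. Lef1, a relative of Tcf7l2, was at 370 to 987 (median 598) in Shox2-high and at 220 to 351 (median 258) in Shox2-low libraries, without overlap and with a change of 1.20 ± 0.12.

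Foxp2, a forkhead factor, and Rora, a nuclear receptor of thalamic relay neurons, changed by 1.46 ± 0.26 and 0.83 ± 0.17, with overlap between the groups. The zinc-finger genes Zic1 and Zfhx3 changed by 1.34 ± 0.34 and 1.02 ± 0.18. Zic4 had a change of 0.75 ± 0.32 and the LIM homeobox gene Lhx9 of 0.10 ± 0.14, and neither was called. Lhx9 counts were nearly level between the groups, with a median of 197 in Shox2-high and 195 in Shox2-low libraries.

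Slc17a6, which fills synaptic vesicles with glutamate in thalamic relay cells, was at 2577 and 3614 in Prevention replicates 1 and 4, 3078 in Treatment replicate 6, 2650, 1106 and 1877 in OVX replicates 2, 4 and 6, and 4332 in SHAM replicate 5. The Shox2-low libraries held 459 to 1081, with a median of 747. All 7 exceeded all 17, OVX replicate 4 only just, and the change was 1.87 ± 0.18. Prkcd, a protein kinase C isoform abundant in relay nuclei, ran from 1378 to 5138 (median 3914) in Shox2-high and from 421 to 1241 (median 748) in Shox2-low libraries, also without overlap, with a change of 2.24 ± 0.24.

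The signalling genes Rgs16, a regulator of G-protein signalling, and Ramp3, a receptor-modifying protein, changed by 1.46 ± 0.18 and 1.47 ± 0.16. Adhesion and synaptic organiser genes were called as well: Ntng1 changed by 0.72 ± 0.14, Slitrk6 by 1.25 ± 0.16, Cbln1 by 1.03 ± 0.33 and Grid2ip by 1.23 ± 0.20. Of these, Cbln1 lost its call in 26 of 41 alternatives. The actin-associated genes Synpo2 and Nexn changed by 2.22 ± 0.24 and 2.06 ± 0.25, and the junction gene Amotl1 by 0.46 ± 0.12. Calb2, which encodes calretinin, changed by 1.17 ± 0.27.

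Several members with high counts in the Shox2-low libraries had small changes. Adarb1, an RNA-editing enzyme, was at 9768 to 17728 (median 13647) in Shox2-high and 8748 to 10255 (median 9320) in Shox2-low libraries, a change of 0.56 ± 0.07. Cacna1g, a T-type calcium channel of burst firing, changed by 0.30 ± 0.07, and the exchange factor gene Plekhg1 by 0.52 ± 0.09. Scn4b, a sodium channel subunit, changed by 0.39 ± 0.12, with 3171 in SHAM replicate 5 and 1303 to 2040 in the other Shox2-high libraries. Its call was lost in 20 of 41 alternatives. Tnnt1, a troponin gene used as a thalamic marker, was not called, with a change of 0.16 ± 0.35.

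Of 16 measured genes for channels and receptors prominent in thalamic neurons, 10 were called higher and 1 lower, with a median change of 0.26. Hcn4, the pacemaker channel of relay cells, ran from 196 to 693 (median 538) in Shox2-high and from 92.2 to 202 (median 129) in Shox2-low libraries, with OVX replicate 6 inside the Shox2-low range and a change of 1.71 ± 0.20. The nicotinic receptor subunit Chrna4 was at 1258 to 2396 in Shox2-high and 531 to 1215 in Shox2-low libraries, without overlap, a change of 1.19 ± 0.16. The adrenergic receptor Adra2b changed by 0.95 ± 0.13, the potassium channel Kcnc2 by 0.69 ± 0.09, the GABA receptor subunit Gabrd by 0.64 ± 0.10 and the potassium channel Kcnk3 by 0.61 ± 0.10. The gene called lower was Cacna1h, another T-type calcium channel, with a change of -0.32 ± 0.07.

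The Shox2-high libraries were not alike. As a measure for each library, members were counted that exceeded the highest of the 17 Shox2-low libraries. Such counts per library, here and for the lists below, were made for list members only. They were not made over all tested features, so no background share stands beside them. Of the 26 thalamus genes, 20 and 21 did so in Prevention replicates 1 and 4, 20 in Treatment replicate 6, 21, 7 and 10 in OVX replicates 2, 4 and 6, and 20 in SHAM replicate 5. Counted the same way against the other 16, the Shox2-low libraries had 0 to 5. Treatment replicate 5 had 5, and Treatment replicate 7 and OVX replicate 7 had 4 each. SHAM replicate 7, whose Shox2 count was the highest of the Shox2-low libraries, had 3, and 3 of its thalamus genes were below all other Shox2-low libraries. Some other lists did overlap by this measure. Of the 16 channel and receptor genes, Shox2-high libraries had 1 to 14 and Shox2-low libraries 0 to 8, with 8 in Prevention replicate 2. In lists described below, OVX replicate 7, a Shox2-low library, had 6 of 11 reticular, 5 of 17 hypothalamic and 5 of 7 septal genes. Shox2-high libraries had 1 to 7, 1 to 9 and 0 to 3 of these.

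**Figure D2:**
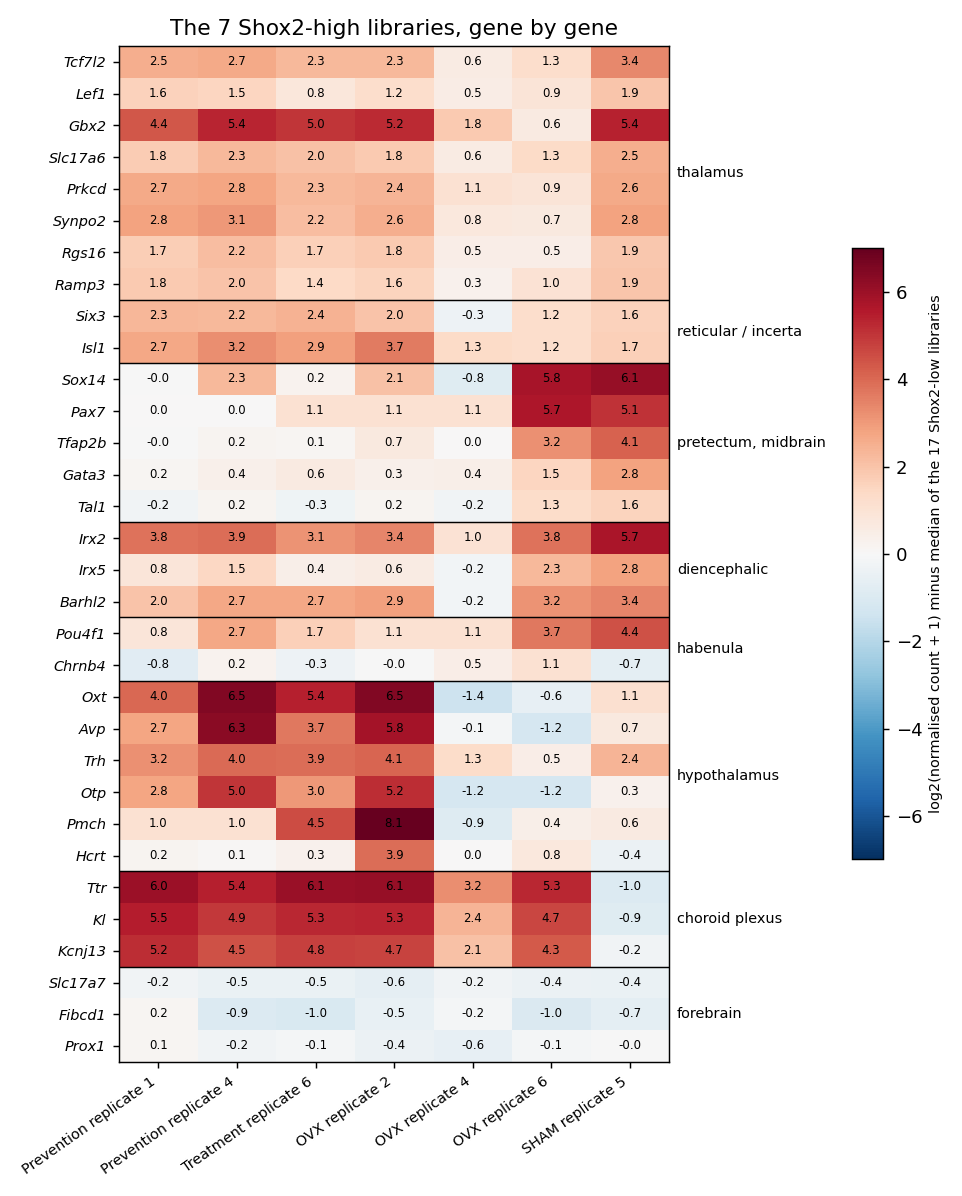
Log2(normalised count + 1) of genes marking neighbouring tissue and forebrain in each of the 7 Shox2-high libraries, minus the median of the 17 Shox2-low libraries. Red is above and blue below that median. The rows are selected list members, and genes such as Lhx9, Tnnt1, Zic4, Agrp and Pomc, which were not called, are not shown. The thalamic rows shown are red in all 7 columns. Those of hypothalamus are red mainly in Prevention replicates 1 and 4, Treatment replicate 6 and OVX replicate 2, and pretectal rows mainly in OVX replicate 6 and SHAM replicate 5.

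Genes of the reticular thalamus and zona incerta, inhibitory territories at the ventral edge of the thalamus, gave 2 called higher of 11 and a median change of 0.22. Six3, a homeobox factor of reticular thalamic and striatal lineages, was at 308 and 296 in Prevention replicates 1 and 4, 336 in Treatment replicate 6, 248, 48.3 and 144 in OVX replicates 2, 4 and 6, and 188 in SHAM replicate 5. The Shox2-low libraries held 12.2 to 212 with a median of 61.8, so the groups overlapped, and the change was 1.96 ± 0.48. Isl1, a LIM homeobox factor of striatal and hypothalamic neurons among others, changed by 2.52 ± 0.68. Pvalb and the Dlx genes were not called.

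Levels of hypothalamic genes differed among the 7 libraries. Of 17 genes tested, 4 were called higher, namely Trh (2.57 ± 0.39), Oxt (2.81 ± 0.92), Avp (2.46 ± 0.71) and Gal (0.68 ± 0.16), and the median change was 0.34. The count of 4 fell to 1 in the libraries with low LOC257642, 1 in those with high LOC257642, 1 with the choroid level as a covariate, 1 with the replicate number as a block and 0 in SHAM and OVX libraries alone. It was 2 without Prevention replicate 4, 1 without Treatment replicate 6 and 2 without OVX replicate 2. Oxt alone lost its call in 28 of 41 alternatives and Avp in 8.

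Oxt, the precursor of oxytocin, was at 886 and 4825 in Prevention replicates 1 and 4, 2368 in Treatment replicate 6 and 4955 in OVX replicate 2, but at 19.2 and 35.2 in OVX replicates 4 and 6 and 119 in SHAM replicate 5. The Shox2-low libraries ran from 11.6 to 377 with a median of 53.8, which covered the last 3 values, and the highest Shox2-low values were those of OVX replicate 7 and Prevention replicate 5.

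Avp, the vasopressin precursor, divided the libraries the same way. It was at 332 and 3926 in Prevention replicates 1 and 4, 652 in Treatment replicate 6, 2828, 44.0 and 20.6 in OVX replicates 2, 4 and 6, and 78.2 in SHAM replicate 5, against 12.6 to 120 in the Shox2-low libraries. Otp, a homeobox factor that oxytocin and vasopressin neurons need in mouse, fell under the filter, yet it was at 14.7 and 72.5 in Prevention replicates 1 and 4, 17.8 in Treatment replicate 6 and 82.8 in OVX replicate 2, while the other Shox2-high libraries held 0 to 1.80 and the Shox2-low libraries 0 to 10.5. Markers of lateral hypothalamus were high in fewer libraries. Pmch, the melanin-concentrating hormone precursor, was at 5944 in OVX replicate 2 and 521 in Treatment replicate 6, and at 11.0 to 45.2 in the other Shox2-high libraries, against 7.11 to 110 in the Shox2-low libraries.

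Hcrt, the orexin precursor, was high in OVX replicate 2 alone, at 711, while the other Shox2-high libraries held 34.2 to 77.7 and the Shox2-low libraries 27.5 to 89.6. Arcuate genes did not follow: Agrp and Pomc had changes of -0.35 ± 0.21 and -0.12 ± 0.19, and neither was called. Trh, made in the hypothalamus and in the rat reticular thalamus, was at 55.6 to 681 in the Shox2-high and 30.1 to 114 in the Shox2-low libraries, with OVX replicates 4 and 6 inside the Shox2-low range.

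Pretectal and midbrain genes marked other libraries. Of 10 tested, 6 were called higher and the median change was 0.63. Sox14 and Barhl2 averaged under 10 in the Shox2-low libraries and passed the filter only through the Shox2-high libraries, so they had to differ, and of the other 8 genes 4 were called, with a median of 0.46. The count of 6 fell to 3 without OVX replicate 1, 5 or 6, to 2 without SHAM replicate 5, to 2 in the libraries with low LOC257642 and to 0 in those with high LOC257642. Sox14, a factor of pretectal and ventral geniculate neurons, was at 97.9 in OVX replicate 6 and 123 in SHAM replicate 5, and at 0 to 7.63 in the other Shox2-high libraries, against 0 to 4.08 in the Shox2-low libraries. Tfap2b, a factor of dorsal midbrain neurons, was at 193 in OVX replicate 6 and 360 in SHAM replicate 5, against 16.3 to 28.8 in the Shox2-low libraries, and the other 5 Shox2-high libraries held 19.4 to 32.6. Both genes set the same pair of libraries apart.

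Pax7, a dorsal midbrain factor under the filter, was at 49.5 in OVX replicate 6 and 32.2 in SHAM replicate 5, and at 0 to 1.11 in the other 5, against 0 to 2.10 in Shox2-low libraries. Gata3 and Tal1, which specify midbrain inhibitory neurons in mouse, were at 97.9 and 339 in OVX replicate 6 and at 249 and 408 in SHAM replicate 5. The highest Shox2-low values of Gata3 and Tal1 were 49.5 and 174. Barhl2, a diencephalic homeobox factor, was above every Shox2-low library in 6 of the 7, with 18.7 and 31.9 in Prevention replicates 1 and 4, 31.2 in Treatment replicate 6, 35.8 and 43.5 in OVX replicates 2 and 6, and 51.1 in SHAM replicate 5, and it was 3.30 in OVX replicate 4. The Shox2-low libraries held 0 to 18.2 of Barhl2. Ddc and Th, enzymes of monoamine synthesis, changed by 0.57 ± 0.11 and 0.70 ± 0.22, and Slc6a3, the dopamine transporter, by 0.12 ± 0.19 and was not called.

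Of 9 habenular genes tested, 0 were called higher and 1, Nwd2, was called lower (-0.30 ± 0.07), with a median change of 0.25. Chrnb4 and Gpr151, a nicotinic subunit and a receptor of habenular projection neurons, had changes of -0.10 ± 0.21 and 0.50 ± 0.21. Pou4f1, the defining habenular factor, fell under the filter and was at 12.1 in OVX replicate 6 and 20.6 in SHAM replicate 5, at 0.777 to 5.54 in the other 5, and at 0 to 3.06 in Shox2-low libraries. Chrna6, a nicotinic subunit, was also under the filter and was at 2.20 to 22.9 in Shox2-high and 0 to 1.40 in Shox2-low libraries. All 7 exceeded all 17, but the gap between the groups lay near 0. How many features under the filter separate in this way was not counted. With a Shox2 threshold of 200, 3 habenular genes were called higher and 1 lower, and of all 16118 features 780 were called higher and 853 lower.

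Genes of striatum and septum, which lie rostral to the hippocampus, were partly higher. Of 13 striatal genes, 7 were called higher, with a median change of 0.49, and the largest were Syndig1l (1.16 ± 0.16) and Tac1 (1.06 ± 0.19). The dopamine receptors Drd2 and Drd1 changed by 0.87 ± 0.19 and 0.49 ± 0.15, and the adenosine receptor Adora2a by 0.61 ± 0.14, all with overlap. Several of these genes are expressed outside the striatum as well. The striatal count was 4 without Prevention replicate 1, Prevention replicate 3 or OVX replicate 2, 4 in the libraries with low LOC257642 and 0 in those with high LOC257642. Of 7 septal and basal forebrain genes, 2 were called higher, among them Zic2 (0.63 ± 0.20), which lost its call in 22 of 41 alternatives, and the cation channel Trpc4 was called lower (-0.45 ± 0.10). Of 10 neocortical genes, 0 were called higher and Fezf2, a factor of deep-layer projection neurons, was called lower (-0.43 ± 0.09).

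**Figure D3:**
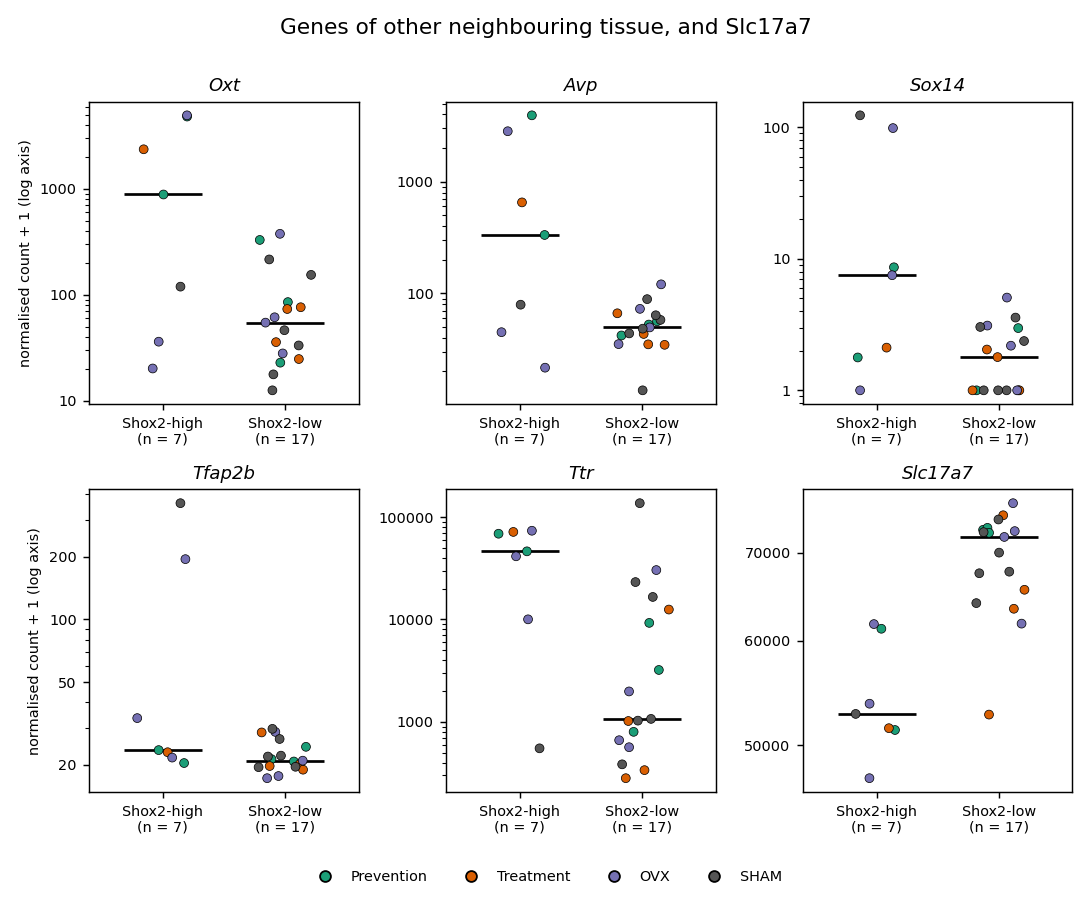
Normalised count + 1 (log axis) of hypothalamic (Oxt, Avp), pretectal (Sox14, Tfap2b) and choroid plexus (Ttr) genes and of Slc17a7 in 7 Shox2-high and 17 Shox2-low libraries. Points are libraries coloured by treatment group and lines are medians. Oxt and Avp separate 4 Shox2-high libraries, Sox14 and Tfap2b separate 2, and Ttr overlaps over its whole Shox2-high range.

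Choroid plexus genes were above the Shox2-low median in most Shox2-high libraries, with exceptions on both sides of the division, among them SHAM replicates 5 and 7. All 19 tested genes had a positive change, with a median of 2.04, and 1, Enpp2, a secreted lysophospholipase, was called (1.25 ± 0.40) and lost its call in 24 of 41 alternatives. Ttr, the thyroxine carrier secreted by choroid plexus, was at 68774 and 46280 in Prevention replicates 1 and 4, 71606 in Treatment replicate 6, 73531, 10032 and 41398 in OVX replicates 2, 4 and 6, and 551 in SHAM replicate 5. The Shox2-low libraries ran from 281 to 136652, with a median of 1068. SHAM replicate 5, the library with the most Tcf7l2, was in the lower part of the Ttr range, and the highest Ttr of all belonged to SHAM replicate 7. The change of Ttr was 3.02 ± 1.18 and was not called. In the libraries with high LOC257642, 10 of the 19 choroid genes were called higher, with a median change of 3.26. In those with low LOC257642, 0 were called, with a median of 1.39.

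The count of choroid members called rested on single libraries: it was 18 without SHAM replicate 5, 17 without SHAM replicate 7, 8 without OVX replicate 7, 4 without OVX replicate 4, 0 without any of 17 others, and 1 without the remaining 3. With the mean log2 choroid level as a covariate, 19 thalamus genes were called higher, with a median change of 0.94, and 10 of the 13 telencephalic genes were called lower. Other lists had fewer calls in that fit. It called 1 of 17 hypothalamic genes (median change 0.03), 4 of 13 striatal, 4 of 10 pretectal and midbrain, 0 of 7 septal and 0 of 19 myelin genes higher, and 1 of 8 CA1 genes lower. In that fit 459 features (2.85%) were called higher and 408 (2.53%) lower. Of 11 genes of ependyma and motile cilia, 0 were called, and Tekt1 and Cfap126 had the smallest p, with changes of 0.46 ± 0.18 and 0.39 ± 0.15.

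Among glial lists, genes of astrocytes outside the telencephalon were called more often than general astrocyte genes, a difference that was not tested. Of 8 such genes, 7 were called higher and the median change was 0.55. Irx2 averaged under 10 in the Shox2-low libraries and passed the filter only through the Shox2-high libraries, so it had to differ, and of the other 7 genes 6 were called, also with a median of 0.55. The count of 7 fell to 4 in the libraries with high LOC257642 and to 2 in SHAM and OVX libraries alone. By comparison, of 12 general astrocyte genes 2 were called higher, Aldh1l1 and Gjb6 (0.22 ± 0.07 each), with a median of 0.07, and Gjb6 lost its call in 21 of 41 alternatives. Slc6a11, a GABA transporter of thalamic astrocytes, ran from 2561 to 4785 (median 4130) in Shox2-high and 1715 to 2873 (median 2220) in Shox2-low libraries, a change of 0.84 ± 0.10, with OVX replicate 4 inside the Shox2-low range. Agt, the angiotensin precursor, changed by 0.55 ± 0.09 and Slc6a9, a glycine transporter, by 0.48 ± 0.09. Gfap, the astrocyte filament, was at 34894 to 47989 in Shox2-high and 32368 to 49297 in Shox2-low libraries, with a change of -0.03 ± 0.07.

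Irx2, an Iroquois homeobox gene of diencephalon and midbrain, was at 29.5 and 31.9 in Prevention replicates 1 and 4, 17.8 in Treatment replicate 6, 21.7, 3.31 and 29.0 in OVX replicates 2, 4 and 6, and 114 in SHAM replicate 5, against 0 to 5.32 in the Shox2-low libraries. It exceeded all Shox2-low libraries in every Shox2-high library except OVX replicate 4, and its change was 3.63 ± 0.46. Irx5 was at 69.8 in OVX replicate 6 and 102 in SHAM replicate 5, with a Shox2-low maximum of 24.7.

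Of 19 myelin genes 2 were called higher, Mbp (0.35 ± 0.11) and Hapln2 (0.32 ± 0.10), with a median change of 0.22. Mbp lost its call in 26 and Hapln2 in 17 of 41 alternatives, and 0 myelin genes were called with library set as a covariate, with the choroid level as a covariate, in the libraries with low LOC257642 or in those with high LOC257642. Of the 7 libraries the 19 genes were highest in OVX replicate 6, where 16 of the 19 exceeded all Shox2-low libraries, and in SHAM replicate 5, where 7 did, while 0 to 2 did in the other 5. Among the Shox2-low libraries, counted against the other 16, 0 to 16 did, the highest being OVX replicate 5. Bcas1 was the only called gene of 9 in the oligodendrocyte precursor list (0.34 ± 0.10). Of 11 microglial, 8 endothelial, 9 mural and 5 blood genes 0 were called. Those with the smallest p in each list were Cx3cr1 (-0.16 ± 0.07), Cldn5 (0.10 ± 0.04), Kcnj8 (0.16 ± 0.11) and Hbb-b1 (0.38 ± 0.25). Of 10 meningeal genes, Igfbp2 was called higher (1.58 ± 0.48), and it is also made by choroid plexus.

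**Figure D4:**
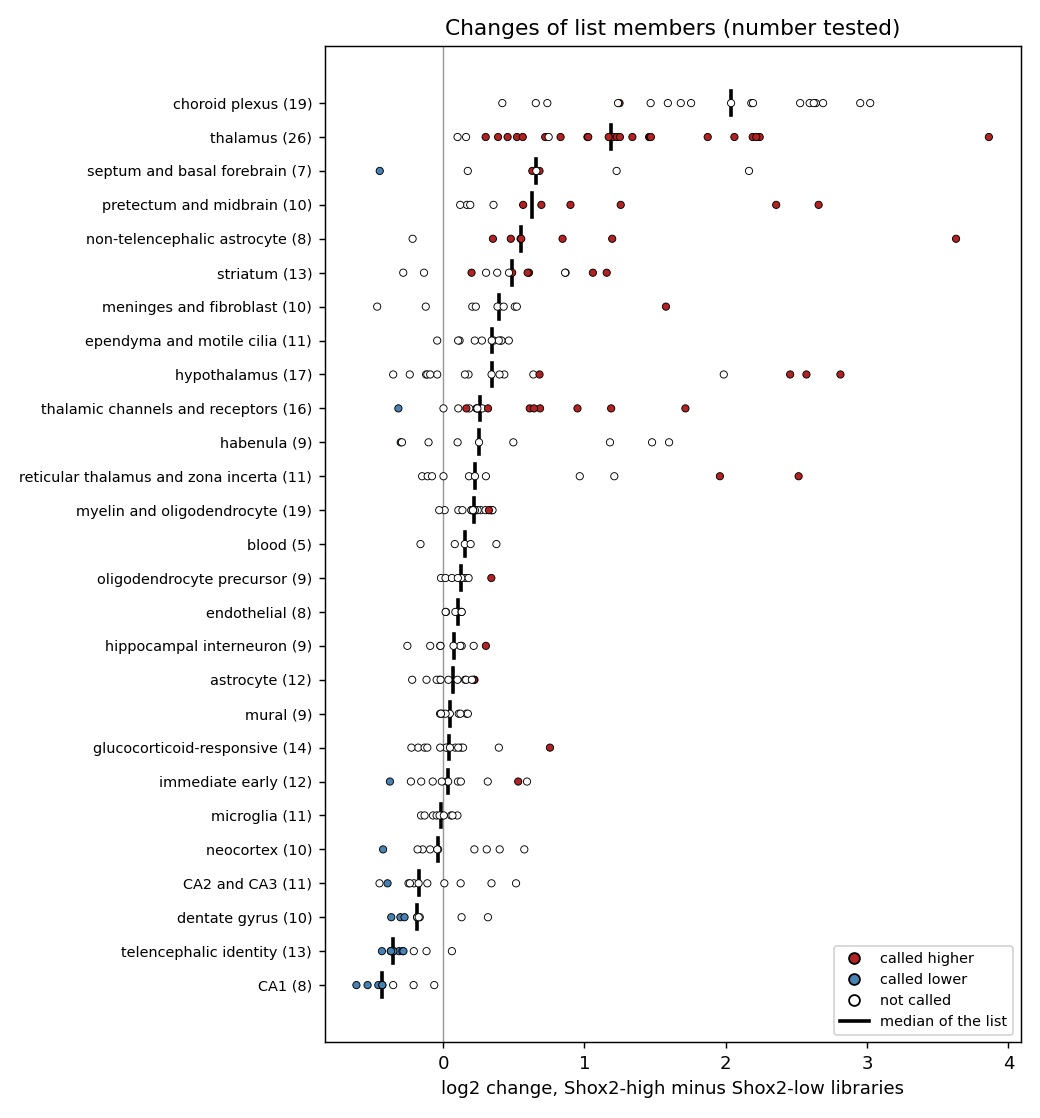
Log2 change (Shox2-high minus Shox2-low) of every tested member of 27 gene lists, ordered by list median (vertical bars). Filled points were called at a limma adjusted p under 0.05, red higher and blue lower. The choroid plexus list has the highest median, 2.04, with 1 member called, and the thalamus list has a median of 1.19 with 23 called.

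Genes that mark forebrain and hippocampal neurons were lower in the Shox2-high libraries by modest amounts. Of 13 genes of telencephalic identity, 10 were called lower and 0 higher, with a median change of -0.35, and 0 were called lower in the libraries with high LOC257642. Slc17a7 was at 61279 and 51334 in Prevention replicates 1 and 4, 51497 in Treatment replicate 6, 47185, 61782 and 53750 in OVX replicates 2, 4 and 6, and 52798 in SHAM replicate 5, against 52736 to 76330 (median 71953) in the Shox2-low libraries. The groups overlapped through Treatment replicate 1 alone, whose count of 52736 was the lowest Shox2-low value, and the change was -0.37 ± 0.06.

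The transcription factors Lhx2, Neurod1, Neurod6 and Emx2 changed by -0.29 ± 0.05, -0.37 ± 0.07, -0.43 ± 0.09 and -0.31 ± 0.07, and the postsynaptic calmodulin-binding gene Nrgn by -0.37 ± 0.09. Emx1 and Tbr1 were not called. Counted per library, 1 and 9 of the 13 lay below all Shox2-low libraries in Prevention replicates 1 and 4, 5 in Treatment replicate 6, 8, 1 and 6 in OVX replicates 2, 4 and 6, and 8 in SHAM replicate 5, against 0 to 5 in the Shox2-low libraries. Prevention replicate 1 thus had 20 thalamus genes above and 1 telencephalic gene below the Shox2-low range.

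By hippocampal field, 5 of 8 CA1 genes were called lower (median -0.43), 3 of 10 dentate genes (median -0.18) and 1 of 11 CA2 and CA3 genes (median -0.17). Fibcd1, a marker of dorsal CA1, ran from 3048 to 7011 (median 3888) in Shox2-high and from 4133 to 9848 (median 6290) in Shox2-low libraries, with 3 Shox2-high libraries inside that range and 4 below its minimum, and a change of -0.61 ± 0.16. Wfs1, Mpped1, Nov and the ciliary receptor Gpr161 changed by -0.46 ± 0.14, -0.43 ± 0.10, -0.43 ± 0.12 and -0.53 ± 0.12. The CA1 count was 1 without Treatment replicate 6 and 3 without SHAM replicate 5, and 0 in the libraries with high LOC257642.

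In the dentate list C1ql3, Trpc6 and Il16 were called lower (-0.30 ± 0.08, -0.27 ± 0.07 and -0.37 ± 0.09), and Prox1 was not called (-0.18 ± 0.11). Rgs14, a CA2 signalling gene, changed by -0.39 ± 0.08. Whether the lower levels of these lists and the higher levels of the neighbouring tissue lists in the same libraries are connected was not tested. In the remaining lists, Slc32a1, the vesicular GABA transporter, was the called member of 9 interneuron genes (0.30 ± 0.09). Of the immediate early genes Fos was called higher (0.53 ± 0.17) but lost its call in 28 of 41 alternatives, and Nr4a3 was called lower (-0.38 ± 0.08), and of the glucocorticoid-responsive genes Cdkn1a was called higher (0.76 ± 0.18).

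Outside the lists, the 15 largest positive changes among called genes with a mean of at least 50 included Mybpc1, a slow-muscle myosin-binding protein (2.62 ± 0.33), Adra1b, an adrenergic receptor (2.27 ± 0.26), Wnt9b, a Wnt ligand (2.18 ± 0.22), and Mlnr, the motilin receptor (2.14 ± 0.21). Mybpc1 ran from 69.3 to 382 in Shox2-high and from 9.83 to 65.0 in Shox2-low libraries, without overlap. Wnt9b ran from 80.7 to 460 in Shox2-high and from 41.5 to 67.7 in Shox2-low libraries, also without overlap. The others were Oxt, Trh, Avp, Prkcd, Synpo2, Tcf7l2, Nexn and Six3, described above, and Mfrp (2.69 ± 0.83), LOC100911492 (2.36 ± 0.61) and Arhgap36 (2.10 ± 0.66).

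The 15 largest negative changes were smaller, from -0.51 ± 0.13 for Myom2 to -0.78 ± 0.18 for Ccdc42. Besides these and Fibcd1 and Gpr161, they were RGD1561667, Aspg, Prss22, Klk10, Tcam1, Fam150b, Gfral, Gna14, Zmynd12, Mroh5 and Klk8. Klk8, a secreted protease of hippocampal neurons, was at 205 to 458 in Shox2-high and 298 to 604 in Shox2-low libraries, with overlap.

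Within each treatment group the direction was the same for nearly all thalamus genes. Shox2-high minus Shox2-low, 24 of 26 were positive in Prevention, 25 in Treatment, 24 in OVX and 25 in SHAM, and the list medians were 1.31, 1.29, 0.80 and 1.22. Tcf7l2 differed by 2.49 in Prevention, 2.15 in Treatment, 1.39 in OVX and 3.42 in SHAM, where Treatment and SHAM each had 1 Shox2-high library and so no spread of their own. Telencephalic genes were lower for 12 of 13 in Prevention, 13 in Treatment, 10 in OVX and 13 in SHAM.

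In the 17 libraries with low LOC257642, 5 of them Shox2-high, 17 thalamus genes were called higher (324 features, 2.01%, called higher and 443, 2.75%, lower), with a list median of 1.12. In the 7 with high LOC257642, 2 of them Shox2-high, 12 were called higher (123 features, 0.763%) and the median was 1.31. This median is the Prevention value given above and no separate result, because both Treatment libraries in the set were Shox2-low. In these 7 libraries 2 features (0.0124%) were called lower, Klhl34 and Hapln1, named after their values were seen. A test of whether the change across the division differed between Prevention and OVX, the groups with at least 2 libraries of each kind, called 1 of 16118 features (0.00620%) by limma, the uncharacterised LOC103690035, and 251 at an unadjusted p under 0.05. It called 0 of the 26 thalamus genes at the adjusted threshold, while 8 of the 26 had an unadjusted p under 0.05, with a smallest of 0.00714 for Adarb1. All 8 had the larger change in Prevention, as did 22 of the 26, and Prevention and OVX differ in library set as well. Their Shox2-high libraries also differ in Shox2 itself, at 771 and 733 in Prevention and 446, 134 and 160 in OVX. Which of these, if any, goes with the larger change was not tested.

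The treatment comparisons for which the study was designed were run with treatment group alone, with the division as a term, and without the Shox2-high libraries. They share groups with each other, so their values stand side by side and are not independent. For OVX against SHAM, limma called 0 features (0%) in all 3 fits, with 1007, 958 and 1110 at an unadjusted p under 0.05. The median change of the thalamus genes in that comparison was 0.11 with treatment group alone, -0.25 with the division as a term and -0.06 without the Shox2-high libraries. OVX held 3 Shox2-high libraries and SHAM 1, and 2 of those 3 had the least Tcf7l2 of the Shox2-high libraries.

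The precision of Tcf7l2 moved with the fit. Tcf7l2 is the other marker given with the rule and did not overlap across the division. Its SE therefore had to fall once the division was a term or the Shox2-high libraries were left out. OVX against SHAM, its change was 0.14 ± 0.56 (SE) with treatment group alone, -0.48 ± 0.24 with the division as a term, and 0.04 ± 0.10 without the Shox2-high libraries. Prevention against SHAM, it was 0.66 ± 0.61, 0.10 ± 0.26 and 0.16 ± 0.11 in the same 3 fits. Across all features the median residual SD was 0.151 with treatment group alone, 0.143 with the term and 0.143 without the Shox2-high libraries.

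**Figure D5:**
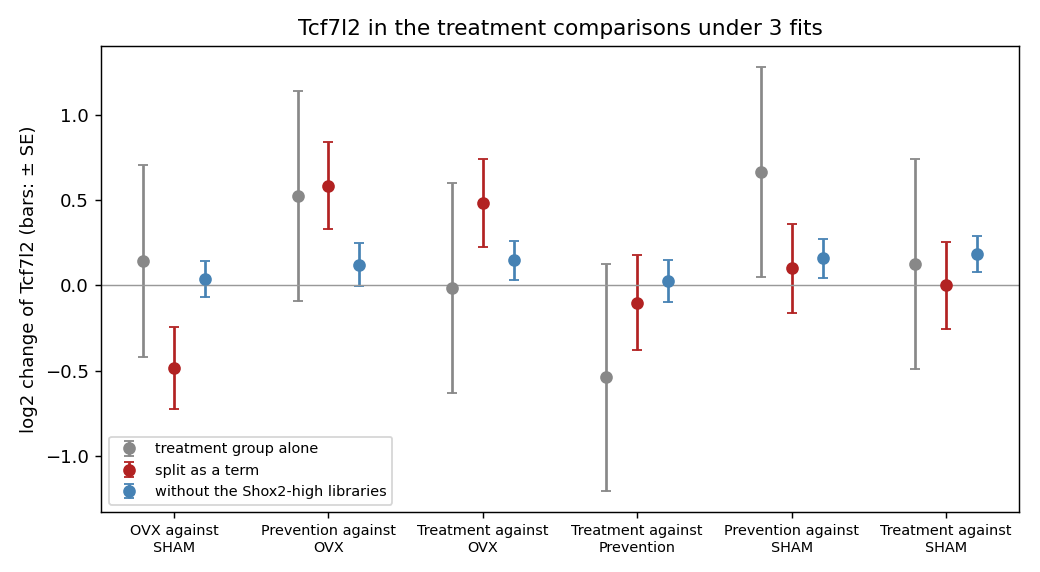
Log2 change of Tcf7l2 in 6 treatment comparisons, with bars of ± SE, from the fit with treatment group alone (grey), with the division as a term (red) and without the Shox2-high libraries (blue). The bars are widest with treatment group alone, for example 0.56 in OVX against SHAM, and narrowest without the Shox2-high libraries, 0.10. Tcf7l2 did not overlap across the division, so the narrower bars follow from the choice of gene.

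All 5 Prevention libraries belong to the set with high LOC257642, and all 7 OVX and all 7 SHAM libraries to the set with low LOC257642. For Prevention against OVX and against SHAM, treatment and library set therefore cannot be told apart within the groups compared, and a fit with both terms rests on the 5 Treatment libraries, 2 of them high. By the labels, Prevention had 5 weeks of E2, Treatment 3 weeks of vehicle and 2 of E2, and OVX and SHAM 7 weeks of vehicle. Schedule length thus also differed between each E2 group and OVX or SHAM, and it cannot be told apart from treatment. Prevention against OVX had 49 called features (0.304%) with treatment group alone, 194 (1.20%) with the division as a term and 0 (0%) without the Shox2-high libraries, where 3 Prevention and 4 OVX libraries were left and 2201 features had an unadjusted p under 0.05. All 49 were among the 194. Of the 49, 1 was also called across the division, and of the 194, 32 were. Among all 16118 tested features, 1766 (11.0%) were called across the division in either direction. Thalamus genes called in this comparison were 0, 2 (Rora and Adarb1, 0.94 ± 0.21 and 0.34 ± 0.08) and 0. With the library set as a term the count was 0, and with both library set and division it was 0.

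Prevention against SHAM had 57 called features (0.354%), 75 (0.465%) and 0 (0%) in the same 3 fits, and 0 with library set as a term. Treatment against OVX had 0 (0%), 1 (0.00620%) and 0 (0%), with 1160, 1320 and 1511 at an unadjusted p under 0.05, and Treatment against Prevention had 0 (0%), 3 (0.0186%) and 0 (0%), with 868, 1134 and 695. The gene called in Treatment against OVX was Pdk4, a kinase that inhibits pyruvate dehydrogenase. The 3 in Treatment against Prevention were Nkx2-4, Sppl3 and Trnp1. Treatment against SHAM had 1 (0.00620%) in each of the 3 fits, each time Pdk4, with changes of 1.72 ± 0.23, 1.70 ± 0.22 and 1.73 ± 0.26 and limma adjusted p of 0.00238, 0.000775 and 0.0451. Pdk4 was not called across the division. These genes were named after their values were seen.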

How the data were processed

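Total RNA from hippocampus was sequenced in 24 libraries. The deposited table gives, for 20318 features by symbol or identifier, a signal that is the authors' normalised count; kallisto 0.43 and DESeq2 are named in the submitters' processing notes, and the genome build is not given in the sources used here. Whole reads could not be recovered from the values, so no count model was run and no counting interval is given. Of the features, 16651 (82.0%) matched a RefSeq symbol or synonym and 2378 carried no symbol.

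From there, values were taken as log2(value + 1), features with a mean of at least 10 were kept and Shox2 removed, which left 16118. Linear models with treatment group and the Shox2 division (threshold 100) were fitted with limma 3.58.1 in R 4.3.3 (empirical Bayes with trend) and Benjamini-Hochberg adjustment at 0.05. A pseudocount of 1 understates changes of low features. The steps were tested on simulated data. Members and lists were chosen with earlier results of these data known, and many list genes are expressed in more than the tissue the list is named for. Genes named are all thalamus members, the 15 largest changes in each direction among called genes with a mean of at least 50, up to 4 called members of each other list (2 where none was called) and a few fixed genes; some named by this rule are not reported here. Alternatives covered the pseudocount, filter, scaling, threshold, covariates, library subsets, the replicate number as a block and each library left out. No library was dropped as a duplicate: correlations between libraries were 0.972 to 0.991.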

Additional observations from a re-analysis of the deposited data

Results flagged for a closer look

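Among 68 sets of values, each 1 gene or list sum within 1 group of libraries, 5 had a value far from the rest. For a single set, chance gives about 1 in 20. The sets share libraries and genes, so that rate does not carry over to the 68. In the Shox2-high libraries, the summed level of the septum and basal forebrain list was 2074 in SHAM replicate 5, against 2752 in the nearest library, and Scn4b was 3171 in the same library, against 2040 in the nearest. The summed level of the thalamus list stood apart within 3 treatment groups, at 43112 in Treatment replicate 6 (nearest 25288), 44408 in OVX replicate 2 (nearest 30577) and 53631 in SHAM replicate 5 (nearest 26502), all of them Shox2-high by the rule that divided the libraries. The change of LOC103690035 across the division was lower in Prevention than in OVX by a difference of -8.03 ± 1.00 (log2, SE, limma adjusted p 0.0462). Its normalised count was 6.98 and 0 in the Shox2-high and 13.9, 29.5 and 38.5 in the Shox2-low Prevention libraries, and 29.3, 18.8 and 36.3 in the Shox2-high and 0 in all 4 Shox2-low OVX libraries.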

How the results depend on the processing

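Across 41 alternatives, thalamus genes called higher numbered 12 to 23 of 26, with 14 in SHAM and OVX libraries alone and 12 in the libraries with high LOC257642. Features called higher and lower numbered 459 and 408 with the choroid level as a covariate, 324 and 443 in the libraries with low LOC257642, 161 and 218 in SHAM and OVX alone, and 123 and 2 in the libraries with high LOC257642; the number of libraries falls in the last 3. Leaving out each library gave 569 to 1072 higher and 620 to 1172 lower, with 620 lower both without Prevention replicate 4 and without SHAM replicate 5, and 21 to 23 thalamus genes. The choroid median was -0.00695 with the choroid level as a covariate, which removes it by construction. Gata3 had a change of -0.0136 in the libraries with high LOC257642, and the cause was not tested. Of 3798 values of 93 genes under alternatives, 3275 kept their direction and call, 522 lost the call and 1 reversed.

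Called features for Prevention against OVX were 194 with the division as a term and 0 without the Shox2-high libraries, with library set, or with both terms, and 1 (without Prevention replicate 3) to 481 (without OVX replicate 7) with each library left out. For Prevention against SHAM they were 0 without the Shox2-high libraries, with library set or with both terms, and 10 (without Prevention replicate 2) to 153 (without SHAM replicate 5). With the division as a term, Treatment against OVX had 1 and Treatment against Prevention 3. Treatment against Prevention had 0 to 11 with each library left out. Treatment against SHAM had 1 to 5. The test of the division between Prevention and OVX called 0 with a pseudocount of 8, and 0 to 6 with each library left out. Except where a construction is named, the cause was not tested. The replicate-left-out fits of the treatment comparisons, the fits with library set as a term and the libraries with high LOC257642 were added after seeing the data.

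With the replicate block, 679 features were higher and 698 lower across the division, with 21 thalamus genes called, and the block gave 3 for Prevention against OVX, 4 for Prevention against SHAM and 0 for Treatment against SHAM. Replicate numbers did not pair the libraries: over 30 same-numbered pairs the correlation of deviations ran from -0.443 to 0.366 (median -0.125), 7 exceeded 0.1, and 3 of 24 libraries correlated best with their own number. Without read depths, no limit can be given for the features near 0.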
